A study of Drosophila melanogaster with 3 samples.

Results

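Stem-like progenitors of the *Drosophila* intestine were compared between the immature adult and the early pupa. They were chosen by their own counts: a cell had to hold at least 8 UMIs per 10,000, and at least 3 UMIs, of *esg*, *klu*, *E(spl)m3-HLH* and *E(spl)mbeta-HLH* summed, at most 1 UMI of *pros*, and fewer than 2 UMIs per 10,000 of *stg* and *dUTPase* summed. A UMI is a unique molecular identifier, a tag that counts each captured RNA molecule once. By this rule 272 cells were progenitors, of 3210 cells that passed the study's filter in both libraries. The immature adult library gave 237 of 1197 cells (19.8%, exact 95% interval 17.6–22.2) and the early pupa library 35 of 2013 cells (1.74%, 1.21–2.41). The same gate took 246 of 1980 cells of the mature adult library, whose values stand beside the comparison as a later stage.

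Intestines freed of foregut and hindgut were dissociated and sequenced cell by cell with 10x Genomics 3′ chemistry, 1 library per stage. All libraries are labelled as females of the genotype CantonS(per01 background) dissected at ZT0, the time of lights on, and the label adds a *per* null background to the *CantonS* strain that the study names alone. The immature adult is labelled as day 1 of adult life, the early pupa as the red-eye stage and the mature adult as day 7 to 8. The library of the immature adult appears as pharate, a stage before eclosion, in the study's methods. The methods also say that work across larva, pupa and adult used both sexes. The *roX* RNAs, which act in dosage compensation and are made in males, had a UMI in 4 of 237 immature adult progenitors and in 6 of 35 early pupal progenitors. With 1 library per stage, stage and library cannot be told apart, and no difference was tested.

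The midgut epithelium is renewed by intestinal stem cells, which divide and give rise to enteroblasts and enteroendocrine precursors through Delta and Notch. The transcription factor *esg* is made by stem cells and enteroblasts, *klu* and the *E(spl)* genes answer to Notch in the enteroblast, and *pros* marks the enteroendocrine fate. During metamorphosis the larval gut is replaced by the progeny of adult midgut progenitors while pulses of the steroid ecdysone pass through the animal, and juvenile hormone acts on the gut of the young adult.

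The limits of the rule acted unequally on the libraries. Of the cells that passed the marker sum, the *pros* limit took out 17 of 384 in the immature adult and 97 of 341 in the early pupa. The limit on *stg*, a phosphatase that drives mitosis, and *dUTPase*, an enzyme of DNA synthesis, took out most of the early pupal cells left. It removed 130 of 367 such cells in the immature adult (35.4%) and 209 of 244 in the early pupa (85.7%). The early pupal progenitors are therefore the small share of marked cells with low *stg* and *dUTPase*, and the cells over the limit are given below for comparison. Just inside the marker limit lay cells of 8.01 and just outside it 7.91 UMIs per 10,000 in the immature adult, and in the early pupa these were 8.59 and 7.80.

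The progenitors of the immature adult held 6608634 UMIs, with a median of 25129 per cell, and those of the early pupa held 510334, with a median of 12055. Levels are given in CPM: the UMIs of a gene were added up over a library's progenitors and scaled to 1000000 UMIs of those cells. Ratios carry exact 95% intervals that cover counting error only. Of the barcodes, 4 were shared between both libraries over all barcodes, 1 among kept cells and 0 among progenitors. Some early pupal cells stood apart: 3 of the 35 held 72973 UMIs (14.3%) and over 50% of the early pupal UMIs of 11 of the 15 genes with the lowest ratios. Values without these 3 cells, an alternative chosen after seeing the data, are given beside the results named below that they move most.

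The list of 10 stem cell and enteroblast markers that the rule did not use summed to 2554 CPM in immature adult and 3499.7 CPM in early pupal progenitors, against 664 and 701 CPM in the other kept cells. *N*, the Notch receptor, stood at 455 CPM in immature adult and 556 in early pupal progenitors, beside 47.6 and 72.6 CPM in the other kept cells. *Sox21a*, a transcription factor of stem cells and enteroblasts, stood at 110 CPM in the immature adult and 114 in the early pupa, with 12.6 and 7.54 in the other cells. *Sox100B* stood at 93.7 and 129 CPM in immature adult and early pupal progenitors, and *mira* at 91.4 and 104. Other members of the list differed more. Of its 8 genes with at least 100 UMIs in both libraries together, 8 lay lower in the immature adult. The median log2 ratio of all genes was −0.19, so at least 50% of them lay lower too. Of the 8 markers, *Dl* and *zfh2* were at least 2-fold lower (25%, against 12.9% of all genes), with log2 ratios of −1.37 and −1.20. *spdo* and *chinmo*, with fewer UMIs, were at −3.69 and −3.56, and *chinmo* at −0.46 without the 3 early pupal cells. Of the markers of other types, 2 of 20 enterocyte genes were at 0 UMIs in the immature adult and 15 of 20 in the early pupa. The immature adult progenitors held 12.95 times as many UMIs in sum, so these counts at 0 are not on equal terms. The enterocyte list summed to 326 CPM in immature adult and 206 CPM in early pupal progenitors, against 12794 and 275 in the other cells. For the enteroendocrine list the sums were 60.7 and 94.1 CPM, against 49370 and 1843. Hemocyte, tracheal and fat body lists each summed to under 40 CPM, at 1.97 and 39.2, 2.27 and 21.6, and 4.39 and 37.2 CPM in immature adult and early pupal progenitors. Other lists were higher. The visceral muscle list summed to 651 CPM in immature adult and 894 CPM in early pupal progenitors, against 1271 and 5427 CPM in the other cells. The list of 6 pupal cell genes summed to 670 CPM in the immature adult and 4113 in the early pupa, and is taken up with the metallothioneins.

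The gate genes did not lead in the same cells. *esg* was the highest of the 4 in 123 immature adult and 14 early pupal progenitors, *klu* in 51 and 13, *E(spl)mbeta-HLH* in 53 and 5, and *E(spl)m3-HLH* in 10 and 3. Since they chose the cells, their levels are given as a description. *klu* stood at 449 CPM in the immature adult and 966 in the early pupa, and *E(spl)mbeta-HLH* at 484 and 470.

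Of 3884 genes with at least 100 UMIs in the progenitors of both libraries together, 307 (7.9%) were at least 2-fold higher and 502 (12.9%) at least 2-fold lower in the immature adult. The median log2 ratio over these genes was −0.19. Scaling moved this centre: with mitochondrial and ribosomal protein genes left out of the totals the median was 0.12, with 501 genes higher and 309 lower (61.9% of the calls higher, against 37.9%). A gene of 100 UMIs at equal level would have 7.17 UMIs in the early pupa, and 225 of the 307 higher genes had fewer than 10 there, so the size of many single positive ratios is poorly known. Of the 502 lower genes, 70 had over 50% of their early pupal UMIs in 1 cell and 265 had a UMI in at least 18 of the 35 cells.

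**Figure D1:**
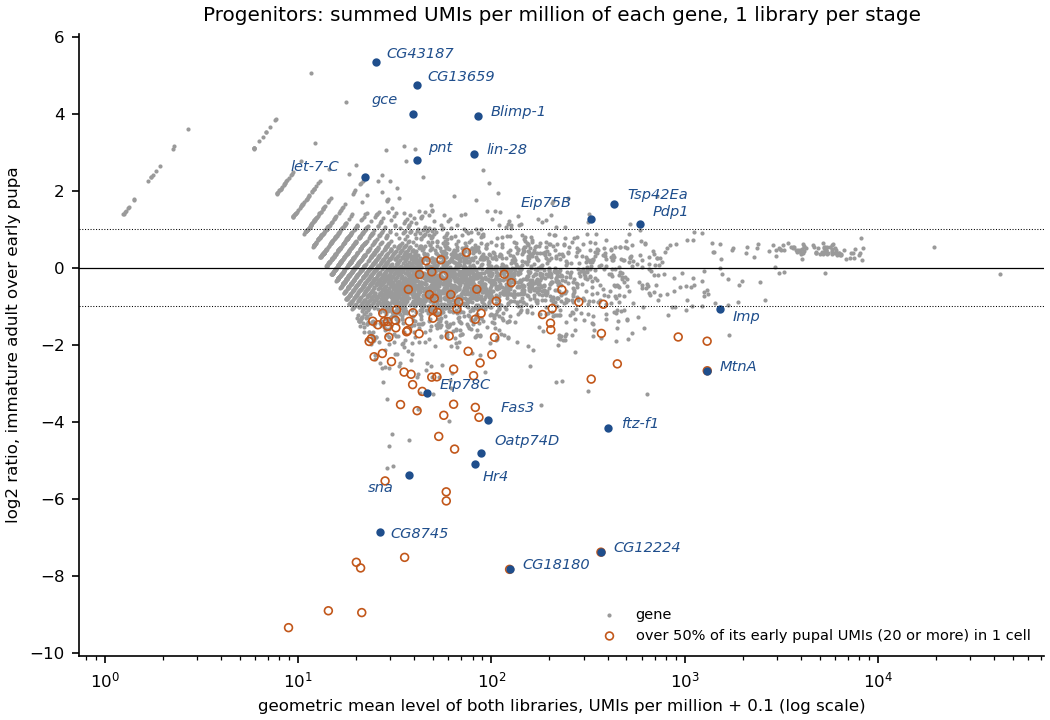
Each point is 1 of 3884 genes, with the geometric mean level of both libraries on a log axis and the log2 ratio of immature adult over early pupal progenitors on the other, and dotted lines at 2-fold. Open circles mark genes with over 50% of at least 20 early pupal UMIs in 1 cell: they hold 11 of the 15 lowest ratios, while *ftz-f1*, *Hr4* and *Oatp74D* are not among them.

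Genes of the ecdysone response differed in both directions. Ecdysone enters cells through an importer, binds the receptor of EcR and usp, and switches on a cascade of nuclear receptors. Of 30 listed genes, 21 had enough UMIs, of which 7 were at least 2-fold lower (33.3%, against 12.9% of all genes) and 4 at least 2-fold higher (19.0%, against 7.9%) in the immature adult. The median of the 21 was −0.65. Without the 3 early pupal cells 7 were lower and 6 higher, beside 12.3% lower and 9.18% higher of all genes.

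*ftz-f1*, a nuclear receptor that makes tissues competent for the next ecdysone pulse (chromosome 3L, 18750607 to 18801309, minus strand, BDGP6), stood at 95.3 CPM in immature adult and 1705 CPM in early pupal progenitors. The log2 ratio was −4.16 (−4.31 to −4.01), a 17.9-fold lower level. All 35 early pupal cells had it, at 6.31 or more UMIs per 10,000 with a median of 17.9, while 5 of the 237 immature adult cells lay above the lowest early pupal cell and 0 above the early pupal median. *Hr4*, an ecdysone-induced nuclear receptor (chromosome X, 1941940 to 2007956, plus strand), stood at 13.9 CPM in the immature adult and 480 CPM in the early pupa. Its log2 ratio was −5.11 (−5.47 to −4.76), and 30 of 35 early pupal cells had a UMI. *Oatp74D*, the ecdysone importer (chromosome 3L, 17487118 to 17511693, plus strand), stood at 16.6 CPM in the immature adult and 472 in the early pupa. The log2 ratio was −4.83 (−5.17 to −4.50), with UMIs in 31 early pupal cells. For none of these 3 genes did any of the 17 alternatives bring the ratio within 10-fold: they ranged from −4.57 to −3.86 for *ftz-f1*, −5.31 to −4.80 for *Hr4* and −4.98 to −4.12 for *Oatp74D*.

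The receptor gene *EcR* stood at 142 CPM in immature adult and 478 CPM in early pupal progenitors (log2 ratio −1.75, −1.96 to −1.54), and its partner *usp* at 25.1 and 29.4 (−0.23, −0.99 to 0.64). *Eip78C*, another induced receptor, stood at 14.98 CPM in the immature adult and 143 in the early pupa, a log2 ratio of −3.26. *br*, a zinc-finger factor of the pupal program, was low in both, at 13.2 and 35.3 CPM in immature adult and early pupal progenitors. *Eip93F*, which directs the switch to adult fates, was among the abundant factors at 769 CPM in the immature adult and 1534 in the early pupa, just under 2-fold with a log2 ratio of −0.997. The interval of *usp* spans 0, while that of *EcR* does not.

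On the other side stood *Blimp-1*, a repressor that sets the time of *ftz-f1* expression in prepupae (chromosome 3L, 5630983 to 5652094, plus strand). It was at 335 CPM in immature adult and 21.6 CPM in early pupal progenitors, a 15.5-fold higher level with a log2 ratio of 3.96 (3.12 to 4.96). A UMI was found in 223 of 237 immature adult cells and in 6 of 35 early pupal cells. *Eip75B*, a heme-binding receptor and regulator of clock genes, stood at 509 CPM in the immature adult and 212 in the early pupa (1.27, 0.99 to 1.56). With the gate on the *E(spl)* genes alone its ratio was 0.52, and with esg and klu alone 1.32. *Hr39*, a nuclear receptor, stood at 41.2 CPM in the immature adult and 15.7 in the early pupa, from 8 early pupal UMIs, and was under 2-fold with the marker limit at 4 per 10,000 (log2 ratio 0.63). *ImpL3*, the lactate dehydrogenase gene first found as ecdysone-inducible, stood at 219 CPM in immature adult and 37.2 in early pupal progenitors (2.55, 1.91 to 3.29), beside 675 and 72.7 CPM in the other kept cells.

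Of 12 listed juvenile hormone genes 7 had enough UMIs. In the immature adult 3 of them were at least 2-fold higher (42.9%, against 7.9% of all genes) and 1 lower (14.3%, against 12.9%). *gce*, one of the paired juvenile hormone receptors (chromosome X, 15297766 to 15319074, plus strand), stood at 156.2 CPM in immature adult and 9.80 CPM in early pupal progenitors. Its log2 ratio was 3.99 (2.77 to 5.62), from 5 early pupal UMIs in 3 cells, while 211 of 237 immature adult cells had a UMI. With the marker limit at 4 per 10,000 the ratio was 2.36, and without the 3 early pupal cells 5.09. *Met*, the other receptor, stood at 56.3 CPM in the immature adult and 41.1 in the early pupa (0.45, −0.18 to 1.16). The interval of *gce* lies wholly above that of *Met*. *Kr-h1*, the zinc-finger factor that juvenile hormone induces, had 131 UMIs (19.8 CPM) in the immature adult and 0 in the early pupa. With 3 UMIs set for the 0 its level was 3.37-fold higher, a value that rests on this setting and is no interval limit. Set the same way, its log2 ratio was 0.16 with each cell thinned at random to 5000 UMIs. *Jheh1*, an epoxide hydrolase that breaks the hormone down, stood at 26.2 CPM in the immature adult and 72.5 in the early pupa, a log2 ratio of −1.47.

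Genes that mark developmental time formed a second set. *lin-28*, an RNA-binding protein that blocks let-7 maturation and favours stem cell divisions in the fly gut (chromosome 3L, 5654681 to 5657384, plus strand), stood at 227 CPM in immature adult and 29.4 CPM in early pupal progenitors. The log2 ratio was 2.95 (2.22 to 3.79), and the level was 23.4 and 3.53 CPM in the other kept cells of the same libraries. *lin-28* is the next gene after *Blimp-1* on the same strand, 2586 bases on. *let-7-C*, the host transcript of the let-7, miR-100 and miR-125 microRNAs (chromosome 2L, 18455717 to 18473132, plus strand), stood at 49.9 CPM in the immature adult and 9.80 in the early pupa (2.35, 1.11 to 3.98), from 5 early pupal UMIs. Reads of this kit come from the host transcript and do not measure the mature microRNAs. *mamo*, a zinc-finger factor of adult neuronal identity, stood at 479 CPM in the immature adult and 210 in the early pupa (1.19, 0.91 to 1.48), and at 0.97 without the 3 early pupal cells. *Imp*, an RNA-binding protein that keeps *upd* mRNA from silencing in the testis niche and declines with age in neural stem cells, stood at 1057 CPM in the immature adult and 2208 in the early pupa (−1.06, −1.15 to −0.97), under 2-fold with mitochondrial and ribosomal protein genes left out of the totals (−0.76). *Syp*, which opposes *Imp* in neural stem cells, also lay lower, at 588 CPM in the immature adult and 952 in the early pupa.

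**Figure D2:**
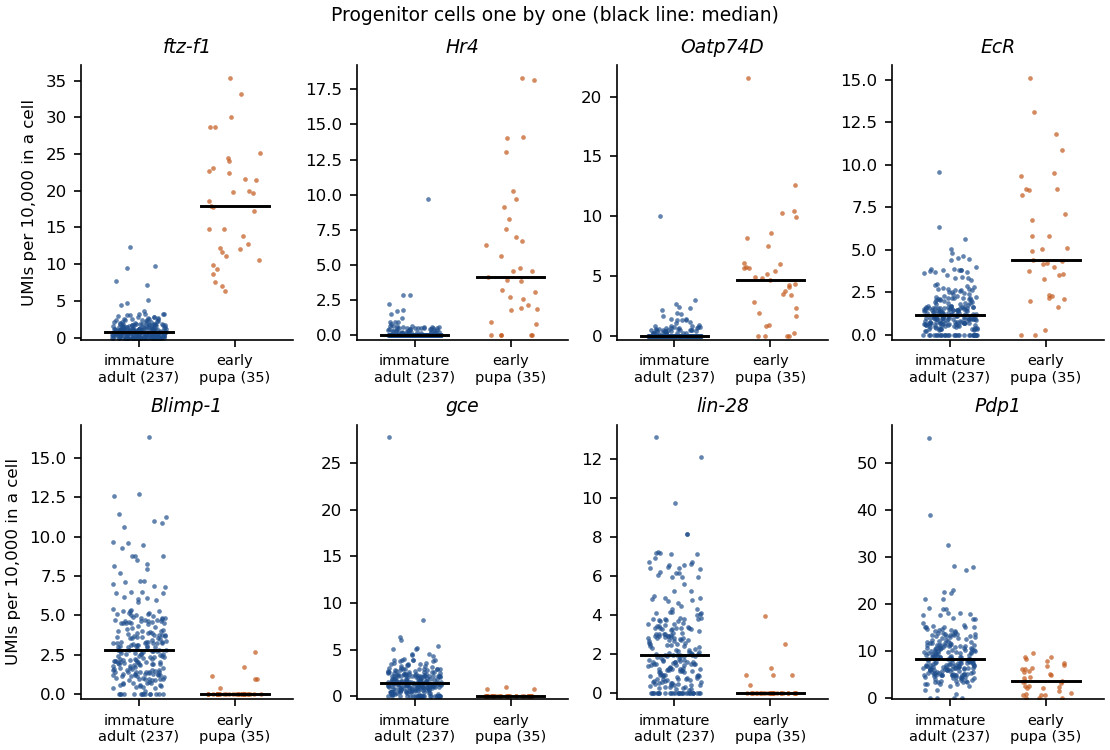
Each point is 1 progenitor, with its UMIs of the named gene per 10,000 of its own UMIs, 237 cells of the immature adult on the left of each panel and 35 of the early pupa on the right, and the black line at the median. *ftz-f1* hardly overlaps between the libraries, with 5 immature adult cells above the lowest early pupal cell, while 0 early pupal cells lie above the immature adult median of *Blimp-1* or *gce*.

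Shares of cells with a UMI depend on depth, and the immature adult cells were deeper. After each progenitor was thinned at random to 5000 UMIs, with 18 immature adult and 3 early pupal cells left out as shallower, *ftz-f1* was found in 40.2% of immature adult and 100% of early pupal cells, where 189 of 237 and 35 of 35 had it unthinned. *Hr4* was then found in 7.76% of immature adult and 65.6% of early pupal cells, and unthinned in 59 and 30 cells. *Blimp-1* was found in 72.1% of immature adult and 12.5% of early pupal cells, and unthinned in 223 and 6 cells. The share for *lin-28* was 67.1% in the immature adult and 3.12% in the early pupa, and unthinned 208 and 7 cells had it. The order of the libraries was thus the same before and after thinning for these 4 genes. No cell type is known to lack them all, so levels are given beside these in barcodes of 500 to 1000 UMIs. No emptier barcodes were used, and these had a median of 61.2% mitochondrial UMIs in the immature adult and 13.3% in the early pupa, so they do not measure free RNA alone and their CPM are not on equal terms. There *ftz-f1* stood at 45.1 CPM in the immature adult and 295 in the early pupa, and *Blimp-1* at 86.2 and 11.3, each below its level in the progenitors of the same library.

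Clock genes were mostly within 2-fold. Of 15 listed genes 12 had enough UMIs, with a median of −0.20, close to that of all genes. In the immature adult 2 were at least 2-fold higher (16.7%, against 7.9% of all genes) and 0 lower (against 12.9%). *Pdp1*, an activator of *Clk*, stood at 871 CPM in immature adult and 396 CPM in early pupal progenitors (1.14, 0.94 to 1.35), and 220 of 237 immature adult cells lay above the early pupal median. It was just under 2-fold without the 3 early pupal cells (0.98) and with *esg* and *klu* alone (0.96). *Clk* itself, which with *cyc* drives the clock, stood at 20.4 CPM in the immature adult and 5.88 in the early pupa. It rests on 3 early pupal UMIs (1.80, 0.22 to 4.09), and went to −0.11 with the marker limit at 4 per 10,000 and −0.24 with *esg* and *klu* alone. *tim* stood at 78.5 CPM in the immature adult and 43.1 in the early pupa (0.87, 0.25 to 1.55). The repressors *cwo* and *vri* were inside counting error, with 250 and 268 CPM for *cwo* and 58.1 and 64.7 CPM for *vri* in immature adult and early pupal progenitors. For *vri* this depended on the gate: its log2 ratio was −0.15, but −1.53 with the marker limit at 4 per 10,000, −1.05 with *esg* and *klu* alone and −1.36 with the *E(spl)* genes alone. *cyc* stood at 27.4 CPM in the immature adult and 47.0 in the early pupa (−0.78, −1.40 to −0.10).

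**Figure D3:**
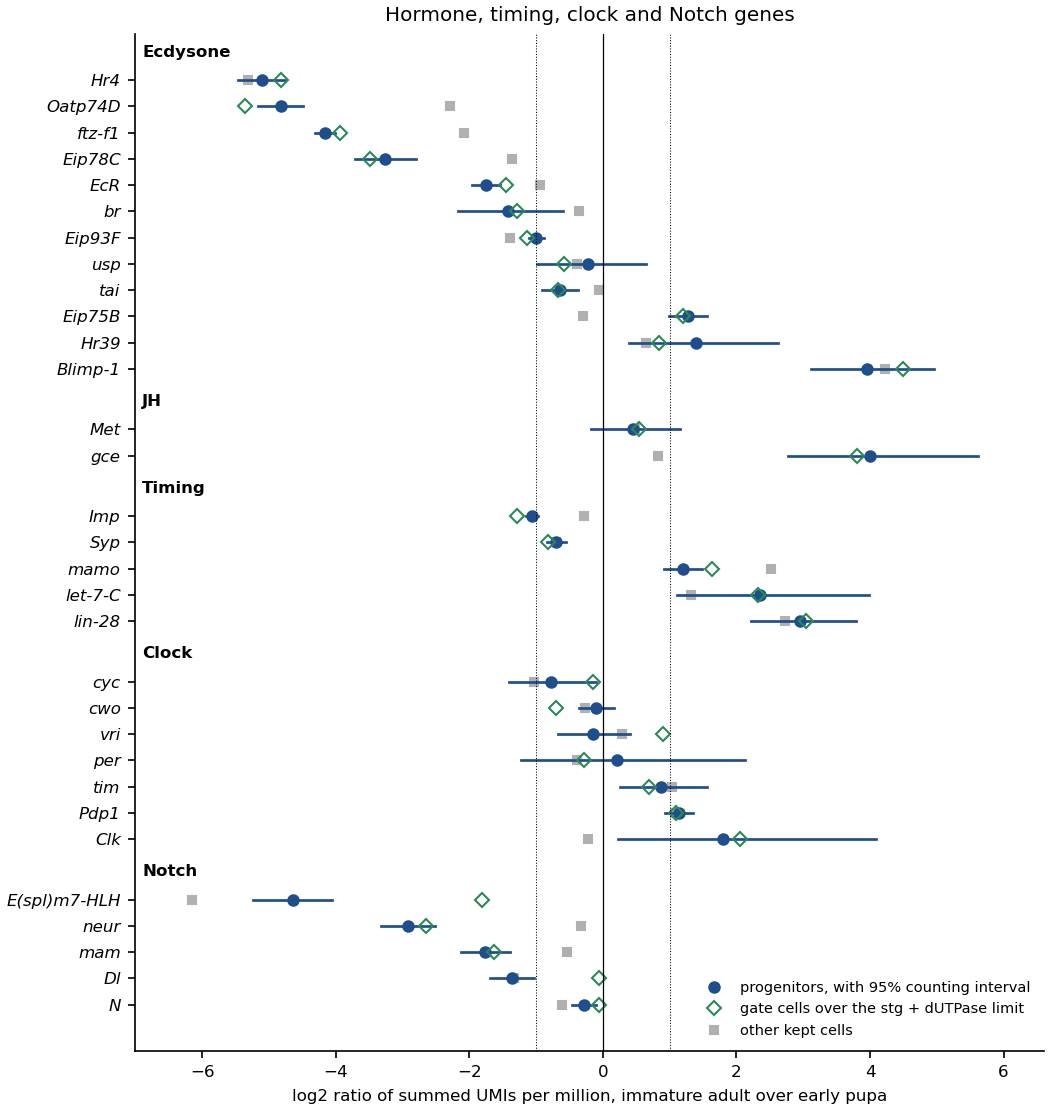
Log2 ratios of immature adult over early pupa for genes of 5 groups, with filled circles and 95% counting intervals for the progenitors, open diamonds for marked cells over the *stg* and *dUTPase* limit and grey squares for other kept cells. *Hr4* and *Blimp-1* lie at like ratios in all 3 sets of cells, whereas *E(spl)m7-HLH* and *Dl* lie nearer 0 in the cells over the limit. *Kr-h1*, with 0 early pupal UMIs, is not plotted.

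The 130 immature adult and 209 early pupal cells over the *stg* and *dUTPase* limit, with 4134105 and 3296768 UMIs, lie outside the rule. Their log2 ratio was −3.93 for *ftz-f1*, −4.82 for *Hr4*, −5.36 for *Oatp74D*, 4.497 for *Blimp-1*, 3.81 for *gce* and 3.03 for *lin-28*. They come from the same libraries and are no second sample. In the remaining kept cells the ratio was −5.31 for *Hr4* and 4.22 for *Blimp-1*, but −2.08 for *ftz-f1*, −2.28 for *Oatp74D* and 0.82 for *gce*. These differences between sets of cells were not tested.

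Notch pathway genes with enough UMIs numbered 14 of 26, of which 0 were at least 2-fold higher and 4 lower (28.6%, against 12.9% of all genes), with a median of −0.37. *E(spl)m7-HLH*, a Notch target of the same complex as the gate genes, stood at 5.90 CPM in immature adult and 147 CPM in early pupal progenitors (−4.64, −5.24 to −4.06), with UMIs in 17 of 35 early pupal cells. Without the *stg* and *dUTPase* limit the ratio was −2.91. *neur*, the ubiquitin ligase that makes Delta active, stood at 22.2 CPM in the immature adult and 169 in the early pupa (−2.92, −3.32 to −2.52), and *mam*, the co-activator of Notch, at 47.4 and 161 (−1.76, −2.12 to −1.39). *Dl*, the ligand, stood at 71.4 CPM in the immature adult and 184 in the early pupa (−1.37, −1.69 to −1.03). For *Dl* the ratio was under 2-fold without the limit (−0.77), with the gate on the *E(spl)* genes alone (−0.85) and among cells without *roX* UMIs (−0.96). Among other signalling genes, *pnt*, the ETS factor at the end of the EGFR pathway, stood at 109 CPM in the immature adult and 15.7 in the early pupa (2.80, 1.81 to 4.01). The unpaired cytokine gene *upd3* stood at 25.1 and 9.80 CPM in immature adult and early pupal progenitors, from 5 early pupal UMIs. The frizzled receptor gene *fz2* stood at 148 CPM in the immature adult and 343 in the early pupa, a log2 ratio of −1.21. The insulin and TOR list had 16 genes with enough UMIs, of which 0 were 2-fold apart (against 20.8% of all genes). Without the 3 early pupal cells 2 of the 16 were higher (against 9.18% of all genes).

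Of 18 genes of cell junctions and polarity 9 (50%, against 12.9% of all genes) were at least 2-fold lower and 0 higher in the immature adult, with a median of −0.79. Without the 3 early pupal cells 8 of 18 were lower (against 12.3% of all genes), with a median of −0.62. *Fas3*, an adhesion protein of septate junctions (chromosome 2L, 18320102 to 18393441, plus strand), stood at 24.2 CPM in immature adult and 378 CPM in early pupal progenitors (−3.97, −4.28 to −3.66), with UMIs in 34 of 35 early pupal cells. *cora*, a septate junction scaffold, stood at 65.4 CPM in the immature adult and 227 in the early pupa, and the polarity gene *crb* at 37.7 and 114. For *Ssk* and *Tsp2A*, the smooth septate junction proteins of the gut, 71.6% and 49.3% of the early pupal UMIs were in 1 cell, and the log2 ratio was −2.80 and −3.25 with all cells but −0.07 and −1.58 without the 3 cells. Of 13 genes of basement membrane and integrins, 5 were at least 2-fold lower (38.5%, against 12.9% of all genes) and 0 higher. *trol*, the perlecan of the basement membrane, stood at 181 CPM in the immature adult and 621 in the early pupa (−1.78, −1.96 to −1.60), in 33 of 35 early pupal cells.

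Growth genes lay on the higher side by small amounts. The median log2 ratio of all genes was −0.19, so at most 50% of them had a ratio above 0. Of 81 cytoplasmic ribosomal protein genes 80 had a ratio above 0 with a median of 0.46, and 0 were 2-fold apart (against 20.8% of all genes). Of 21 nucleolar and ribosome biogenesis genes 19 were above 0, with a median of 0.61 and 3 at least 2-fold higher (14.3%, against 7.9%). *nop5*, a core protein of the RNPs that methylate ribosomal RNA, stood at 188 CPM in immature adult and 80.3 CPM in early pupal progenitors, and *NHP2* at 118 and 45.1. Of 19 chromatin genes 0 were above 0, with a median of −0.70 and 3 at least 2-fold lower (15.8%, against 12.9% of all genes). The high mobility group genes *HmgZ* and *HmgD* stood at 260 and 194 CPM in the immature adult, and at 766 and 437 CPM in the early pupa. With mitochondrial and ribosomal protein genes left out of the total the 3 list medians were 0.76, 0.91 and −0.40. Without the 50 most abundant genes they were 0.60, 0.76 and −0.56. Both totals raise all ratios alike, so only the chromatin median could have changed direction, and it stayed negative.

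**Figure D4:**
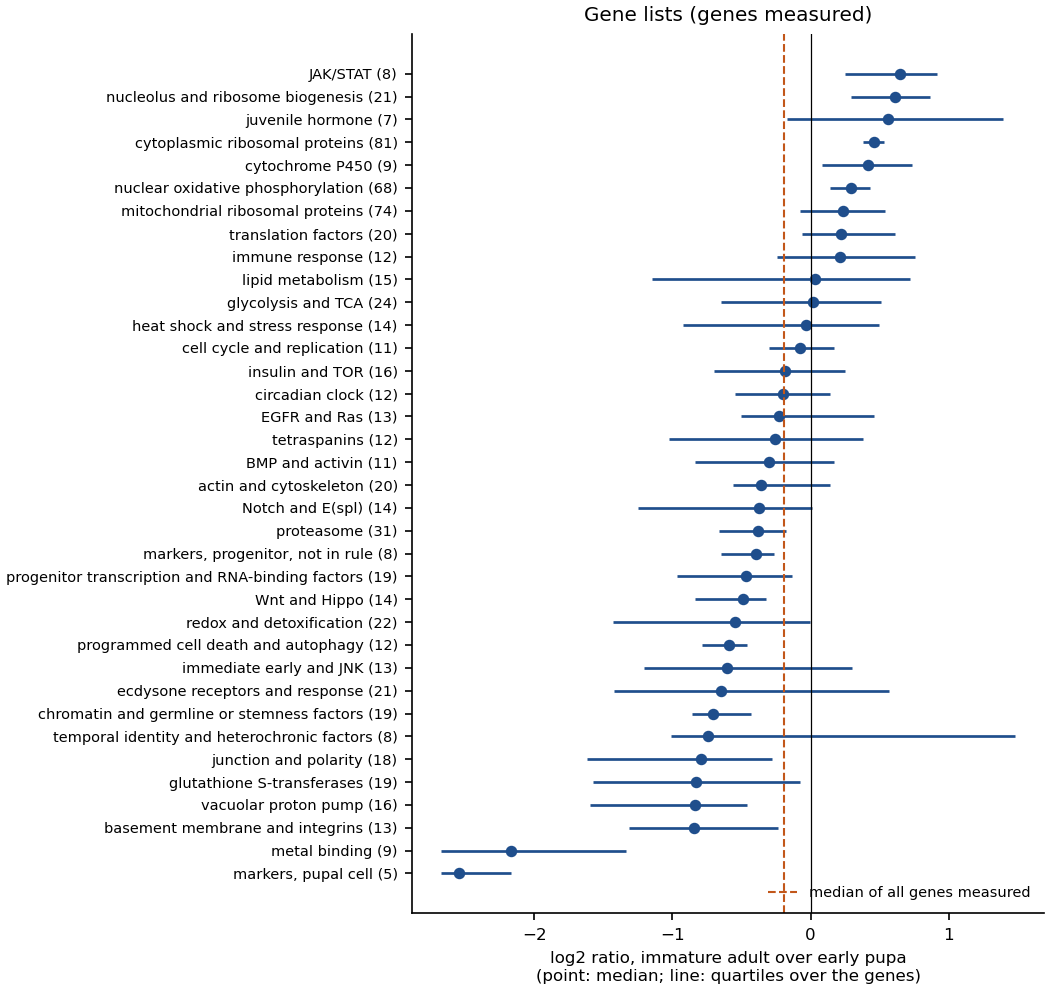
Each line is a gene list with at least 5 measured genes (number in brackets), with the median log2 ratio of immature adult over early pupal progenitors as a point and the quartiles over genes as a line. The dashed line is the median of all genes at −0.19. Metal binding and pupal cell genes lie lowest, and JAK/STAT and nucleolar genes highest, at 0.65 and 0.61.

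Metallothioneins bind copper, zinc and cadmium. Of 9 metal binding genes with enough UMIs 7 were at least 2-fold lower (77.8%, against 12.9% of all genes) and 0 higher in the immature adult. *MtnA* stood at 518 CPM in immature adult and 3312 CPM in early pupal progenitors (−2.68), with 62.3% of its immature adult and 54.6% of its early pupal UMIs in 1 cell. Without the 3 early pupal cells *MtnA* was at −1.06, and 5 of the 9 genes were lower (against 12.3% of all genes). The median of the list was then −1.06, against −2.17 with all cells. *MtnB* stood at 65.4 CPM in the immature adult and 382 in the early pupa. In barcodes with at most 1000 UMIs, the metal binding list summed to 12365 CPM in the immature adult and 112202 in the early pupa, and in the other kept cells to 18321 and 96210. The level in shallow barcodes moved with this list, and its part in the result was not tested. The same holds for the enterocyte genes *alphaTry*, *Jon65Aiii* and *Mal-A1*, which had 476, 223 and 133 UMIs in immature adult progenitors and 0 in the early pupa. In the shallow barcodes *alphaTry*, a trypsin, stood at 2240 CPM in the immature adult and 15.1 in the early pupa.

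The highest ratios included genes of little known function. *CG43187* stood at 160 CPM in immature adult and 3.92 CPM in early pupal progenitors (5.35, 3.49 to 8.40), from 2 early pupal UMIs, and *CG13659* at 212 and 7.84 (4.76, 3.40 to 6.64), from 4. *Swim*, a secreted protein that carries Wingless, stood at 78.4 CPM in the immature adult and 3.92 in the early pupa, and *Ugt86Dd*, a glycosyltransferase, at 65.4 and 1.96. The tetraspanin gene *Tsp42Ea* combined a high level with a high ratio, at 773 CPM in the immature adult and 243 in the early pupa (1.67, 1.41 to 1.94), beside 112 and 41.6 CPM in the other kept cells. Of the 15 highest ratios, 8 rested on 1 early pupal UMI and 1, *alphaTry*, on 0.

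The 15 lowest ratios differed in how many cells they rested on. *CG8745* stood at 2.42 CPM in immature adult and 280 CPM in early pupal progenitors (−6.85, −7.70 to −6.11), with UMIs in 17 of 35 early pupal cells and 15.4% of them in the highest. *sna*, a zinc-finger repressor related to *esg*, stood at 5.75 CPM in the immature adult and 241 in the early pupa (−5.39, −5.95 to −4.85), in 20 early pupal cells, and *DNaseII*, a lysosomal nuclease, at 4.69 and 174, in 23. These 3 had no cell with over 50% of their UMIs. In 11 others over 50% of the early pupal UMIs were in 1 cell, and *Ugt36Bc*, a glycosyltransferase, had 43.0% in 1 cell and was at −5.15, or −2.64 without the 3 cells. *CG12224* had 2407 of its 2437 early pupal UMIs in 1 cell of 39618 UMIs, which also held 43 UMIs of *E(spl)mbeta-HLH* and 0 of *esg*. The same cell held 185 of 223 UMIs of *slbo*, a C/EBP factor, and 209 of 242 of *Cyp9b2*. Another cell held 747 of 954 UMIs of *CG18180* and 211 of 242 of *LysX*, a lysozyme. Without the 3 cells the log2 ratio was −1.01 for *CG12224*, 0.64 for *Cyp9b2*, −3.45 for *slbo*, −5.75 for *CG18180* and −4.53 for *LysX*. It was −6.24 for *CG42397*, −5.00 for *CG18179*, −4.50 for *CG14302*, −4.33 for *Obp99c*, −4.07 for *Spn27A* and −4.37 for *CG5506*. Of these 11 genes all but *Cyp9b2* were still at least 2-fold lower in the immature adult. The ratio was −6.95 for *CG8745*, −5.61 for *sna* and −5.42 for *DNaseII*.

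**Figure D5:**
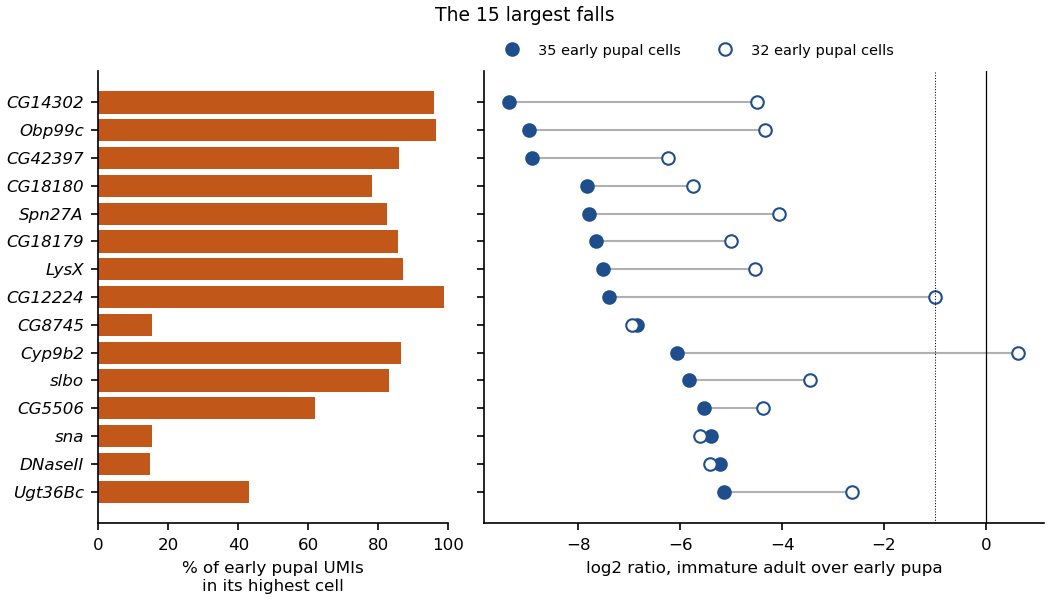
For the 15 genes with the lowest ratios, bars give the percent of early pupal UMIs in the highest cell, and points give the log2 ratio of immature adult over early pupa with all 35 (filled) and with 32 (open) early pupal cells. *CG8745*, *sna* and *DNaseII* hardly move, while *Cyp9b2* goes above 0.

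Of 13 immediate early and JNK genes 3 were at least 2-fold higher in the immature adult (23.1%, against 7.9% of all genes). Another 5 were lower (38.5%, against 12.9%). Of 14 heat shock genes 0 were higher and 2 lower (14.3%), and of 12 cell death and autophagy genes 0 were higher and 1 lower (8.3%). Both of these lower shares lay near the 12.9% of all genes or below it. *hid*, an activator of apoptosis, stood at 196 CPM in immature adult and 596 CPM in early pupal progenitors (−1.61, −1.79 to −1.42), in 32 of 35 early pupal cells, and *Gadd45*, a stress sensor, at 149.8 and 399.7 in immature adult and early pupal progenitors. *Ets21C*, a factor downstream of JNK, stood at 62.3 CPM in the immature adult and 17.6 in the early pupa (1.82, 0.88 to 2.96), and *egr*, the fly TNF, at 28.6 and 9.80. *GstS1*, a glutathione transferase, stood at 110 CPM in the immature adult and 443 in the early pupa (−2.003, −2.22 to −1.78). *Ald*, the aldolase of glycolysis, stood at 540 CPM in the immature adult and 1260.0 in the early pupa (−1.22, −1.34 to −1.10), in 34 of 35 early pupal cells. Of 12 immune genes 3 were at least 2-fold higher (25%, against 7.9% of all genes) and 1 lower (8.3%, against 12.9%). The negative regulators of immune signalling *pirk* and *PGRP-LB* stood at 122 and 173 CPM in the immature adult, and at 33.3 and 62.7 CPM in the early pupa. *PGRP-LB* was under 2-fold with the marker limit at 16 per 10,000 (0.88) and in cells of 10000 to 40000 UMIs (0.94). *cact*, of the same list, went the other way, with a log2 ratio of −1.32.

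The mature adult progenitors gave one more level for the same genes. *ftz-f1* stood at 1705, 95.3 and 67.9 CPM in progenitors of the pupal, immature and mature stage, *Hr4* at 480, 13.9 and 1.89, and *Oatp74D* at 472, 16.6 and 11.2. *Blimp-1* stood at 21.6, 335 and 446 CPM in the same order, and *gce* at 9.80, 156.2 and 234. For these 5 genes the immature adult lay nearer the mature adult than the early pupa on the log scale. *lin-28* was highest in the middle, at 29.4, 227 and 126 CPM along the same stages. *Clk* stood at 5.88, 20.4 and 19.1 CPM and *tim* at 43.1, 78.5 and 190 in the same order.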

How the data were processed

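Single-cell RNA sequencing counts of 3 libraries were used, 1 per stage. The deposited values are raw UMI counts per gene and cell, which the authors made with Cell Ranger 3.0.2 according to the submitters' processing notes. The study's methods name a release 6 Drosophila reference genome for the alignment, and 17599 of 17738 features were matched by gene ID to BDGP6, which gave the coordinates. Cells with under 25% mitochondrial UMIs, 200 to 4000 genes and 1000 to 100000 UMIs were kept. No doublet caller was run, and doublets were not removed. UMIs of the progenitors were summed per library and divided by their total, and a gene entered from a joint sum of 100 UMIs on. With 1 library per stage no test was made: ratios have exact conditional 95% intervals, shares have Clopper-Pearson intervals, and a count of 0 was set to 3 UMIs. These cover counting error only. The members and the 49 gene lists were chosen with earlier results of these data known. Named genes were the 15 highest and 15 lowest ratios, up to 6 genes per list at least 2-fold apart with 20 CPM or more in 1 library, the clock genes and hormone receptors that the study names, marker genes and the gate genes. Genes named outside that rule were chosen after their values were seen. For shares of cells, each cell was thinned to 5000 UMIs. There were 18 alternatives set at the outset and 2 added later. A motif search was not run. Python 3.11.15, numpy 2.4.6, scipy 1.17.1, pandas 2.3.3 and matplotlib 3.10.9 were used, and the ratio intervals were tested on simulated data.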

Additional observations from a re-analysis of the deposited data

Results flagged for a closer look

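Of 143 named genes at least 2-fold apart in the progenitors, 11 were at least 2-fold apart in the opposite direction in the other kept cells. Named genes were chosen in part for large ratios, and the same share over all 3884 genes was not counted. The difference between the sets of cells was not tested. Each pair of values is the log2 ratio of immature adult over early pupa in progenitors and then in the other kept cells. *whe* stood at 3.88 (1.38 to 9.19, 1 early pupal UMI) and −1.70, and *laza* at 3.40 (0.90 to 8.72, 1 early pupal UMI) and −1.90. *JhI-26*, a gene that juvenile hormone induces, stood at 1.04 and −1.23, and *Lpin*, a phosphatidate phosphatase of fat synthesis, at 1.12 and −1.02. *fabp*, a fatty acid binding protein, stood at −2.89 and 1.36, with 84.0% of its early pupal UMIs in 1 cell. *IA-2*, a protein of secretory vesicles, stood at −2.71 and 3.89, with 54.3% in 1 cell. The proton pump genes *Vha13*, *VhaAC39-1* and *VhaM9.7-b* stood at −1.71, −1.56 and −1.33 in progenitors and at 1.42, 1.14 and 1.28 in the other cells. Without the 3 early pupal cells that stand apart they were at 0.22, −0.36 and −0.22 in progenitors, so the opposite directions do not hold there, and *fabp* was at 2.91. *Hsp70Bc*, a heat shock protein, stood at −1.05 and 1.98, and *GstD9*, a glutathione transferase, at −1.41 and 2.06.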

How the results depend on the processing

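Of 143 named genes at least 2-fold apart, 72 were 2-fold apart in the same direction under all 17 settings that give gene values, 16 higher and 56 lower in the immature adult. No paired analysis was possible because each stage has 1 library. With the marker sum at 4 *Clk* was −0.11. With it at 16, 146 immature adult cells (12.2%) and 309 lower genes were left, and *Hsp70Bc* was 0.19, *fabp* 3.16, *Npc2a* 0.42, *Vha13* 0.11 and *Tsp42Ec* −0.47. With *esg* and *klu* alone *Clk* was −0.24, *fabp* 3.09 and *Npc2a* 0.29, and with the *E(spl)* genes alone 14.5% of immature adult cells passed. Without the *stg* and *dUTPase* limit 367 immature adult (30.7%) and 244 early pupal cells (12.1%) passed and *fabp* was 0.093. Without the 5% deepest cells *Npc2a* was 0.29 and *Tsp42Ec* −0.10, and without cells over 1% of other markers *fabp* was 2.71, *Npc2a* 0.58, *Vha13* 0.15 and *Tsp42Ec* −0.38. With 10000 to 40000 UMIs there were 154 immature adult cells (12.9%), 168 higher genes and *Tsp42Ec* at −0.43. With equal weight per cell *pros* was 0.0038. Thinned cells gave 58 higher and 135 lower genes, with *Rat1* and *Jon65Aiii* at −0.45 and *Zasp52* at 0.66. *Jon65Aiii* had no early pupal UMIs, so its value rests on the 3 UMIs set for a 0 and shows no lower level. Totals without mitochondrial and ribosomal protein genes gave 501 higher and 309 lower (median 0.12, 61.9% of calls higher), and totals without the 50 most abundant genes a median of −0.04 and 50.6%. Minimum sums of 30, 300 and 1 UMIs gave 656, 112 and 684 higher and 888, 204 and 3845 lower genes. At the minimum of 1, genes with few UMIs and none in the early pupa counted as lower, since a 0 was set to 3 UMIs. The 3845 are therefore no count of genes seen at a lower level in the immature adult. The remaining alternatives were chosen after seeing the data. Without the 3 early pupal cells *Cyp9b2* was 0.64, *fabp* 2.91, *Npc2a* 0.50 and *Vha13* 0.22. Without the top cell of each gene 480 genes were higher and 301 lower (61.5% of calls higher), and *Npc2a* was 0.26. That setting drops 1 of 35 early pupal but 1 of 237 immature adult cells per gene. By design it thus takes a larger share of the early pupal UMIs. The causes were not tested. The 35 early pupal cells limit depth: a gene of 100 UMIs has about 7.17 there.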
